A study of Mus musculus with 104 samples.

Results

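The cerebellum of young C57BL/6 mice was set against the hypothalamus of young C57BL/6 mice. The arrays were chosen by their labels alone: 4 arrays of whole cerebellum and 5 arrays of whole hypothalamus, 9 of the 104 arrays of the series, given as biological replicates in the design text. All donors were males of 2-3 mo, for which the labels name no treatment, from an institutional aging colony, written as C57BL/6 for the cerebellum and C57BL6/J for the hypothalamus in the labels, and were singly housed before decapitation and rapid removal of the tissue. The series follows gene expression with age in brain regions of mice. For a second look at each regional difference, the aged arrays of the same strain were used (6 cerebella at 21-23 mo and 5 hypothalami at 22-24 mo), as were arrays of aged male BALB mice (4 cerebella at 21-23 mo and 6 hypothalami at 20-23 mo). Values are log2 normalized signals of 1-colour Agilent whole mouse genome arrays, and each difference is the cerebellum mean minus the hypothalamus mean, so that a negative number means a higher signal in the hypothalamus.

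The hypothalamus is a set of small nuclei around the third ventricle that governs feeding, fluid balance, reproduction, growth, stress responses, sleep and daily rhythms, largely by releasing peptides, each made by a few specialized groups of neurons. Magnocellular neurons send vasopressin and oxytocin to the posterior pituitary, arcuate neurons make the feeding peptides Agrp and Pomc, and neurons of the lateral area make melanin-concentrating hormone and orexin. The cerebellum is built from a much more uniform circuit, in which very numerous small glutamatergic granule cells drive GABAergic Purkinje cells, with Bergmann glia and a few interneuron types around them. The regions also descend from different segments of the embryonic neural tube, the hypothalamus from the forebrain and the cerebellum from the rostral hindbrain, and adult neurons keep part of the transcription factor code of their origin.

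A gene was called when the log odds of a difference (B, from limma) was above 0 and the means differed at least 2-fold. Of 23142 genes tested, 5687 (24.6%) were called, 2467 (10.7%) with the higher signal in the cerebellum and 3220 (13.9%) with the higher signal in the hypothalamus. The shares of 10.7% and 13.9% are the background for each list count given below for the young mice. For each of the 5687 called genes, the arrays of both regions did not overlap, as was so for 57.4% of all tested genes. At any size of difference, 34.3% of genes had B above 0, and with an adjusted p under 0.05 in place of B the called share was 31.8%. The median difference over all tested genes was -0.13, and the median size of a called difference was 1.63. Differences past 4-fold were found in 1888 called genes and past 16-fold in 200, of which 109 were higher in the cerebellum and 91 in the hypothalamus. With normexp background correction, which compresses dim signals, 3212 genes were called (1418 and 1794). With the arrays scaled to their 75th percentile, 5228 were called, 2758 higher in the cerebellum and 2470 in the hypothalamus, so that the larger share (52.8% against 43.4%) turned to the cerebellum.

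**Figure D1:**
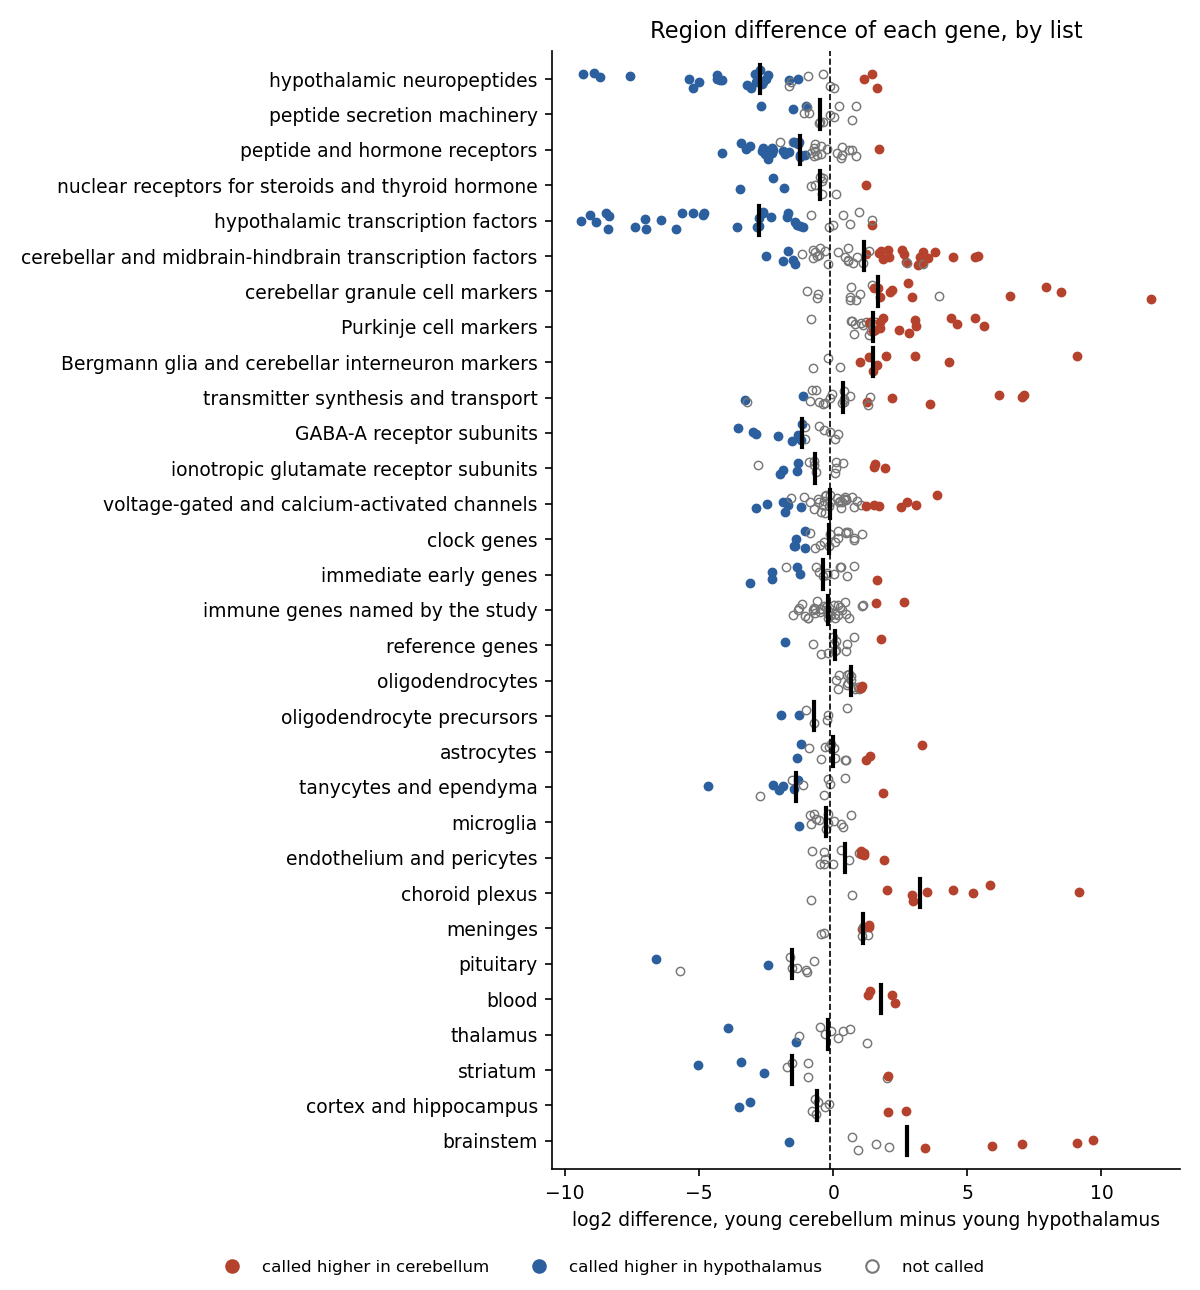
Regional differences by gene list. Each row is 1 of 31 gene lists, each point is a tested gene at its log2 difference (cerebellum minus hypothalamus), coloured by whether it was called and in which direction, the black bar is the median of the list and the dashed line is the median of all tested genes at -0.13. The hypothalamic transcription factors and neuropeptides lie furthest to the left (medians -2.76 and -2.72), and the choroid plexus and brainstem markers furthest to the right (3.24 and 2.75).

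The labels were borne out by the defining markers, since Gabra6 and Pcp2 were high on each cerebellum array and Pmch and Hcrt on each hypothalamus array. Between 78.7% and 87.4% of probes were well above background on an array and none was saturated. Correlations between arrays of the same region were 0.982 to 0.994, against 0.91 to 0.937 across regions. Cerebellum array 1 stood apart from the other cerebellum arrays: its mean over the granule cell markers was 12.18 against 12.98 to 13.14, and over the Purkinje cell markers 12.71 against 13.69 to 13.77, while its brainstem markers averaged 9.22 against 7.98 to 8.78. No slide held arrays of both regions and the file headers name different image software versions for them (10.5 for the cerebellum and 10.1 for the hypothalamus), so that region and these technical differences cannot be told apart. In tissue RNA of this kind, fewer cells of a type and less RNA per cell also cannot be told apart.

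Of 31 neuropeptide genes tested, 22 were higher in the hypothalamus and 3 in the cerebellum, with a median difference of -2.72. Pmch encodes the precursor of melanin-concentrating hormone, which promotes feeding and rapid-eye-movement sleep. Its signal was 6.6, 7.25, 6.17 and 7.99 on cerebellum arrays 1 to 4 and 16.13, 16.36, 16.2, 16.43 and 16.52 on hypothalamus arrays 1 to 5 (log2 difference -9.33, SE 0.31, 643-fold). Hcrt, the precursor of the orexins that sustain wakefulness, read 7.61, 7.86, 7.31 and 7.68 in the cerebellum and 16.01, 16.52, 16.01, 16.54 and 16.55 in the hypothalamus (-8.71, SE 0.17, 419-fold). In both cases the whole spread within a region was below 2 log2 units and the groups lay far apart.

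The magnocellular hormones followed. Avp, the precursor of the antidiuretic hormone vasopressin, read 5.5, 8.13, 8.06 and 5.77 in the cerebellum and 15.42, 16.27, 15.71, 15.76 and 15.87 in the hypothalamus (-8.94, SE 0.55, 492-fold). Oxt, the precursor of oxytocin, which acts in birth, lactation and social behavior, read 7.86, 8.29, 8.99 and 8 against 15.15, 15.92, 15.75, 16.37 and 16.21 (-7.60, SE 0.29, 193-fold). Avp varied more within the cerebellum, where arrays 2 and 3 were higher than arrays 1 and 4, than within the hypothalamus.

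Promoter sequence is shown for these 4 genes, the peptides with the widest differences, and for 2 cerebellar genes described below. RefSeq on mouse build GRCm38.p6 supplied the 100 bases before each annotated start, printed 5′ to 3′ on the strand of the gene. Capitals mark the letters ATAAA within the last 40 bases, letters that occur within TATA boxes, at whatever distance from the start they lie.
Pmch, chr10:88090972-88091071, plus strand: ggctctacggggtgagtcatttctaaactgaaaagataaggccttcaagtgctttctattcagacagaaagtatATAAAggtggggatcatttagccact
Hcrt, chr11:100762932-100763031, minus strand: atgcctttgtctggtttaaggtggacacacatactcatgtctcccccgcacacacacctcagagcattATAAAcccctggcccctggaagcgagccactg
Avp, chr2:130582589-130582688, minus strand: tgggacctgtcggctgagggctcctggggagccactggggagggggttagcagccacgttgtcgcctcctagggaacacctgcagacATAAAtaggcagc
Oxt, chr2:130576069-130576168, plus strand: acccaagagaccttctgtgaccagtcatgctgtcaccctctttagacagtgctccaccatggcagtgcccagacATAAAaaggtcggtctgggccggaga
Gabra6, chr11:42321073-42321172, minus strand: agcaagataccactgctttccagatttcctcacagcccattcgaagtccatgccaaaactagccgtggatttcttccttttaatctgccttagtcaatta
Pcp2, chr8:3625548-3625647, minus strand: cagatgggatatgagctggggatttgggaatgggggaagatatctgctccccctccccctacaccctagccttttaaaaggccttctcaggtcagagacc
All 4 peptide windows hold ATAAA on the strand of the gene and neither cerebellar window does. Among the neuropeptides higher in the hypothalamus, 9 of 19 genes with a promoter in the table held it (47.4%), namely Adcyap1, Avp, Hcrt, Npvf, Oxt, Pmch, Pomc, Tac1 and Vip, and 12 of 28 did among all listed neuropeptides (42.9%). The share was 11.1% among the called hypothalamic transcription factors (2 of 18), 12.5% among the called peptide receptors (2 of 16), 11.1% among the called granule cell markers (1 of 9) and 10% among the called Purkinje cell markers (1 of 10). Over all 27025 genes with a promoter, 1584 held the letters on the gene strand (5.86%) and 2348 on either strand (8.69%). The motif was chosen after the values were seen, a match is a description of the letters and not of a bound site, and Pcp2 has 4 annotated starts of which 1 is shown.

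Among the peptides of the arcuate nucleus, Agrp, which drives feeding by blocking melanocortin receptors, read 5.42, 5.76, 5.69 and 5.85 in the cerebellum and 9.37, 10.48, 10.06, 9.73 and 10.37 in the hypothalamus (-4.32, SE 0.22, 20-fold). Pomc, the precursor of the melanocortins that restrain feeding and of beta-endorphin, read 10.09, 10.27, 9.92 and 10.07 against 14.04, 14.25, 14.27, 14.45 and 14.62 (-4.24, SE 0.13, 18.8-fold). Cartpt, made by many Pomc neurons, differed by -2.44 and its B was at the limit of the call. Ghrh, which releases growth hormone, differed by -4.14 on its brighter probe and by -0.26 on the other. Pdyn, the precursor of dynorphin, read 10.4, 9.62, 9.82 and 9.71 against 15.16, 15.03, 15.25, 14.71 and 15.37 (-5.22, SE 0.19, 37.3-fold). For Agrp, Pomc and Pdyn the regions were separated on every array, by less than for the 4 peptides above.

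Releasing and reproductive factors were also higher in the hypothalamus. They included Trh (-4.32), which releases thyrotropin, Kiss1 (-3.06), which drives the neurons that make gonadotropin-releasing hormone, Gnrh1 itself (-2.86), Npvf (-2.94), a peptide that restrains that axis, and Tac2 (-2.64), the neurokinin B precursor of arcuate Kiss1 neurons. Prok2 (-5.37) and Vip (-2.49), peptides of the suprachiasmatic clock, differed the same way, as did Ucn3 (-5.02), a ligand of the receptor Crhr2. Gal (-2.72), Nts (-3.23), Adcyap1 (-1.66) and Grp (-1.31) completed this direction, together with Tac1 at -2.67, although its other probe differed by 2.97. In the cerebellum, the probes of Prok2, Ucn3 and Npvf were well above background on 1 of 4 arrays.

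Other listed peptides were not called or were higher in the cerebellum. Npy, an appetite-stimulating peptide of arcuate and many other neurons, read 11.08, 11.89, 11.82 and 11.91 in the cerebellum and 11.4, 11.86, 11.62, 11.72 and 11.59 in the hypothalamus. The groups overlapped and the difference was 0.04 (95% interval -0.37 to 0.44). Penk, the enkephalin precursor, gave -0.14 (-0.62 to 0.34) and Sst, the somatostatin precursor, -0.39 (-0.76 to -0.03), and neither was called. Cck was higher in the cerebellum at 13.92, 14.53, 14.47 and 14.5 against 13.01, 13.18, 12.46, 12.73 and 12.31 (1.61, SE 0.20, 3.06-fold), without overlap, but its other probe gave -1.15. Nppc (1.44) and Qrfp (1.15) were the other 2 members higher in the cerebellum, and Nmb (-0.93), Nmu (-1.66) and Galp (-1.58) were not called.

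**Figure D2:**
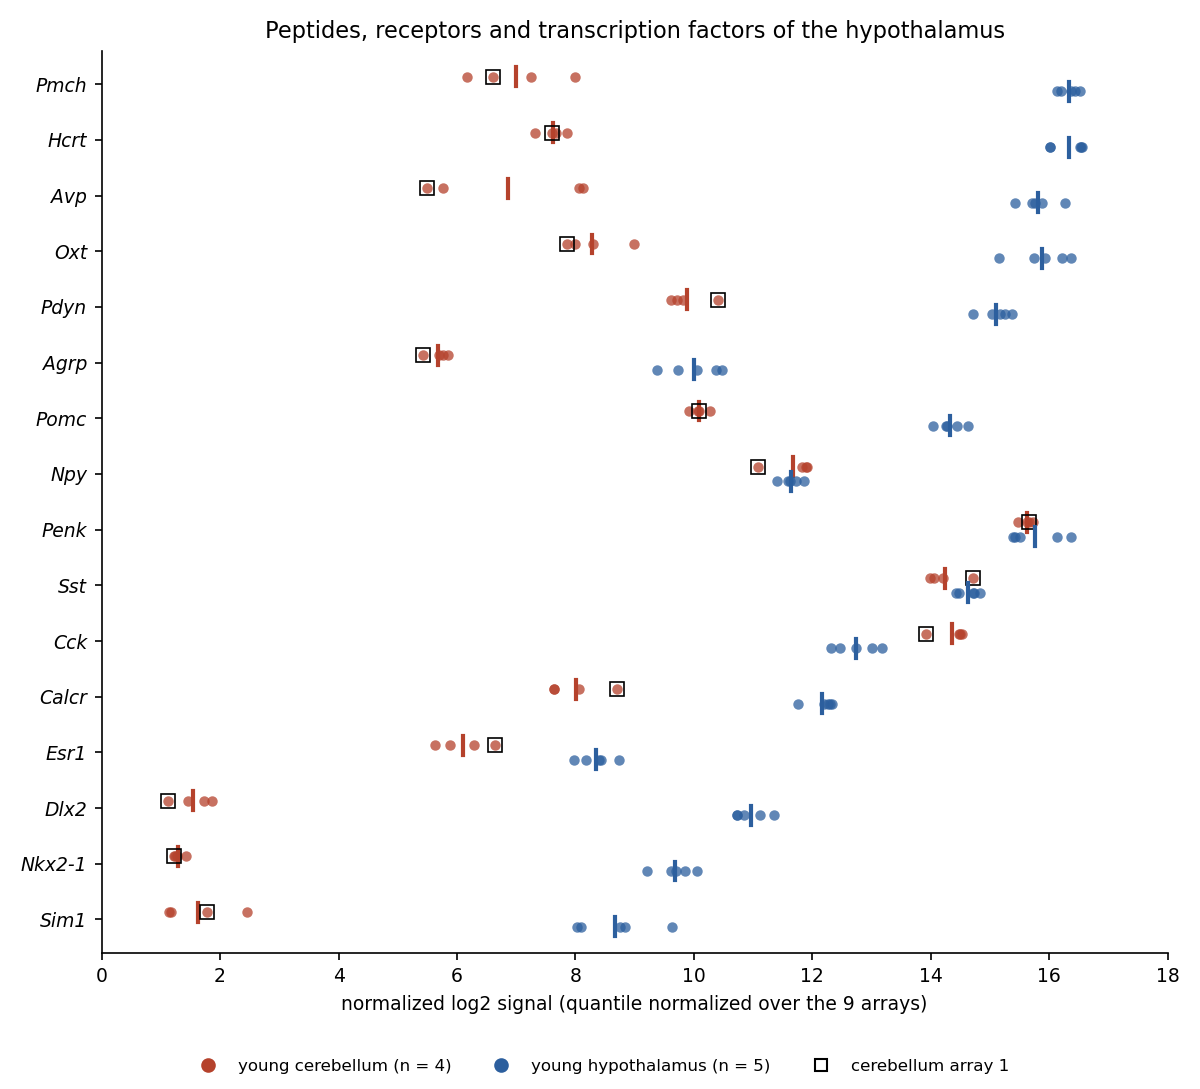
Hypothalamic genes on each array. Each row shows log2 normalized signal for 1 gene on the 4 cerebellum and 5 hypothalamus arrays, on a shared axis. There is a point for each array, a bar at the mean of each region and a square for cerebellum array 1. The regional means of Pmch, Hcrt, Avp and Oxt are separated by more than 7 log2 units, while the points of Npy and Penk overlap.

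The genes of peptide processing and release differed far less than the peptides. Of 14 genes tested, 3 were higher in the hypothalamus and none in the cerebellum, with a median of -0.51. The 3 were Baiap3 (-2.69), a protein of dense-core vesicle traffic, the prohormone convertase Pcsk1 (-1.49) and its sister convertase's chaperone Scg5 (-1.03). The general vesicle proteins Chga (-0.11) and Cadps (0.01) were not called. Without cerebellum array 1 the count was 5 rather than 3.

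Receptors for peptides and hormones leaned toward the hypothalamus, with 20 of 39 genes higher there and 1 higher in the cerebellum (median -1.25, or -0.61 with normexp). Calcr, the calcitonin and amylin receptor subunit, read 8.71, 8.06, 7.63 and 7.63 in the cerebellum and 11.75, 12.34, 12.19, 12.27 and 12.3 in the hypothalamus (-4.16, SE 0.23, 17.9-fold), without overlap. Receptors of feeding circuits followed: the neuropeptide Y receptors Npy2r (-3.43), Npy1r (-2.29) and Npy5r (-1.48), the bombesin-family receptor Brs3 (-3.25), the cholecystokinin receptor Cckar (-3.09), the melanocortin receptor Mc4r (-1.33) and the incretin receptor Glp1r (-1.80). Receptors for the hormones of the magnocellular and pituitary axes did likewise, among them Avpr1a (-2.62), Oxtr (-2.44), Prlr (-2.65), Crhr2 (-2.29) and Ghr (-2.26, with another probe at 0.16).

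Several receptors known for hypothalamic actions were not called. The leptin receptor gave Lepr 0.34 (SE 0.13), the ghrelin receptor Ghsr -0.46 (SE 0.34), the orexin receptors Hcrtr1 -0.83 (SE 0.20) and Hcrtr2 -0.25 (SE 0.19), and the melanin-concentrating hormone receptor Mchr1 -1.98 (SE 0.47). For Ghsr and for Mc3r (-0.67) a dimmer probe differed by -3.19 and -4.12, so the probes of these genes disagree in size. Crhr1, the receptor of corticotropin-releasing hormone on Purkinje cells and many other neurons, was higher in the cerebellum, at 13.09, 13.56, 13.69 and 13.4 against 11.88, 11.47, 11.87, 11.6 and 11.74 (1.72, SE 0.15, 3.3-fold). The receptors for this family of ligands thus differed in opposite directions, Crhr2 toward the hypothalamus and Crhr1 toward the cerebellum.

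Among the nuclear receptors for steroids and thyroid hormone, 3 of 11 were higher in the hypothalamus and 1 in the cerebellum. The background was 13.9% and 10.7%. Esr1, the estrogen receptor alpha of the ventromedial and arcuate nuclei, read 6.64, 5.63, 6.28 and 5.88 against 8.18, 8.73, 7.98, 8.4 and 8.43 (-2.23, SE 0.22, 4.7-fold). Esr2 (-1.83) and the retinoid receptor Rxrg (-3.47) went with it. The vitamin D receptor gene Vdr was higher in the cerebellum (1.21), a call lost without any single array other than cerebellum array 4 and hypothalamus array 2, and also under normexp. The glucocorticoid receptor gene Nr3c1 (0.09) and the thyroid hormone receptor genes Thra (-0.40) and Thrb (-0.50) were not called.

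Transcription factors of forebrain origin were mostly higher in the hypothalamus. Of 36 tested, 28 were higher in the hypothalamus and 1, Irx5 (1.44), in the cerebellum, with a median of -2.76. Nkx2-1, which specifies the ventral hypothalamus, read 1.22, 1.28, 1.24 and 1.42 in the cerebellum and 9.21, 9.85, 9.61, 10.05 and 9.7 in the hypothalamus. Dlx2, of GABAergic forebrain neurons, read 1.12, 1.73, 1.46 and 1.86 against 10.85, 10.73, 11.36, 10.72 and 11.12, and Sim1, needed for the paraventricular and supraoptic nuclei, 1.78, 2.45, 1.14 and 1.17 against 8.09, 8.03, 8.84, 8.76 and 9.63. None of these probes was well above background on any cerebellum array, so only bounds can be given, taken against the dimmest probe that was well above background on each array. On that footing Nkx2-1 was at least 119-fold higher in the hypothalamus, Dlx2 at least 287-fold and Sim1 at least 58.9-fold. With normexp the differences were -3.39 for Nkx2-1, -4.54 for Dlx2 and -2.53 for Sim1, and the median of the list was -1.63. With the authors' series table of log2 values they were -4.93 for Nkx2-1, -6.29 for Dlx2 and -3.92 for Sim1. Under both alternatives the differences were smaller than these bounds, so the bounds hold only for the processing used here. Keeping only probes well above background on every array, which leaves out genes measured in a single region, gave 15 calls toward the hypothalamus in place of 28.

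The same bound was at least 290-fold for Dlx1, 278-fold for Nkx2-4, 218-fold for Fezf1 and 108-fold for Lhx8, all regulators of the developing forebrain. Factors measured on some or all cerebellum arrays included Lhx6 (-7.39) of ventral forebrain neurons, Isl1 (-5.87) of arcuate neurons, Vax1 (-5.64) and Six6 (-5.23) of the suprachiasmatic area, Sim2 (-4.82) and Nr0b1 (-4.84). Nr5a1, which marks the ventromedial nucleus, gave -1.68, and Rax, which marks tanycytes and the early hypothalamus, gave -2.33. Of the members not called, Nkx2-2 gave -0.00 (SE 0.11) and Tcf7l2 -0.14 (SE 0.20).

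Transcription factors of the cerebellum and of the midbrain-hindbrain boundary ran mostly the other way. Of 44 tested, 19 were higher in the cerebellum and 5 in the hypothalamus, with a median of 1.16, or 0.52 with normexp. En2, an engrailed factor that patterns the cerebellum, read 12.43, 13.92, 13.84 and 14.01 in the cerebellum and 8.87, 8.15, 7.8, 8.09 and 7.85 in the hypothalamus (5.40, SE 0.34, 42.2-fold). Neurod1, required for granule cell differentiation, read 9.59, 11.8, 11.46 and 11.66 against 5.64, 5.76, 5.72, 6.3 and 5.71 (5.30, SE 0.41, 39.4-fold). In both cases cerebellum array 1 was the lowest of the cerebellum arrays by over 1 log2 unit, and still lay above each hypothalamus array.

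Other granule cell regulators in this direction were Neurod2 (4.46), Etv1 (2.71), Meis1 (2.64) and the Zic genes Zic2 (3.54), Zic1 (2.08) and Zic5, for which the bound was at least 7.18-fold. Ptf1a, the determinant of cerebellar GABAergic neurons, was at least 4.33-fold higher in the cerebellum, and the Purkinje cell factors Ebf1 (3.15), Lhx1 (2.03), Skor1 (2.55) and Rora (1.78) were called too. Barhl2 gave 3.23 on its brighter probe and -0.24 on the other. The 5 higher in the hypothalamus were Nr2f2 (-2.50) and Nr2f1 (-1.41), orphan receptors used in many parts of the embryo, Foxp2 (-1.86), also made in Purkinje cells, Lmx1a (at least 2.93-fold) and Insm1 (-1.49), a count of 2 with normexp and 3 with the replicate block. Pax6 (1.32), En1 (2.76), Eomes (3.33) and Barhl1 (0.54) were not called.

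Granule cell markers were higher in the cerebellum or not called. Gabra6, the GABA-A receptor alpha-6 subunit of granule cells, read 12.35, 14.23, 13.74 and 14.01 in the cerebellum and 3.12, 1.13, 1.1, 1.07 and 2.21 in the hypothalamus (11.86, SE 0.51), where its probe was well above background on 1 of 5 arrays. The promoter printed above lies before this gene. Cbln3, a granule cell secreted protein of the cerebellin family, read 9.47, 11.61, 11.22 and 11.55 against 2.82, 2.64, 3.25, 3.2 and 3.33 (7.92, SE 0.40). For both genes cerebellum array 1 was the lowest by over 1 log2 unit. With normexp the differences were 7.14 for Gabra6 and 4.66 for Cbln3.

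In all, 11 of 21 granule cell markers were higher in the cerebellum and none in the hypothalamus, with a median of 1.66. The count was 7 among probes well above background on every array. Slc17a7, the vesicular glutamate transporter of granule cells and cortical neurons, read 10.92, 12.26, 11.87 and 12.19 in the cerebellum and 8.34, 6.25, 4.08, 4.74 and 2.76 in the hypothalamus (6.58, SE 0.95), so that it differed more among hypothalamus arrays than among cerebellum arrays. Crtam (8.50), Chn2 (2.94), Nrep (2.79), Fat2 (2.20), the adhesion molecule Cntn2 (2.13), the NMDA receptor subunit Grin2c (1.75) and Reln (1.66) were also called. Gabrd, the extrasynaptic GABA-A delta subunit, read 12.94, 15.07, 14.64 and 14.91 against 11.59, 11.36, 11.83, 9.03 and 8.33, without overlap, yet its spread among hypothalamus arrays kept it from being called (3.96, SE 0.79, limma B -0.79). Cbln1, the partner of the glutamate receptor delta-2, gave 1.44 (SE 0.31) and was not called.

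Purkinje cell markers gave a like picture, with 15 of 27 higher in the cerebellum and none in the hypothalamus (median 1.5). Pcp2, a modulator of G proteins made in Purkinje cells, read 14.84, 16.77, 16.76 and 16.71 against 10.4, 9.91, 10.7, 11.17 and 11.08 (5.62, SE 0.43, 49.1-fold). Pvalb, a calcium buffer of Purkinje cells and fast-spiking interneurons, read 13.54, 14.6, 14.46 and 14.42 against 10.3, 10.15, 9.67, 9.33 and 9.8 (4.40, SE 0.26, 21.2-fold). Car8 (5.30), a protein that binds the IP3 receptor, Kcng4 (4.61), Ppp1r17 (3.07), Homer3 (3.05), Gng13 (2.81) and Nefh (2.47) followed.

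Some familiar Purkinje cell genes were not called. Calb1, the calcium buffer calbindin, read 14.59, 16.12, 15.98 and 16.14 in the cerebellum and 14.71, 15.08, 14.77, 15.06 and 15.04 in the hypothalamus (0.77, 95% interval 0.11 to 1.44), with cerebellum array 1 below each hypothalamus array. Itpr1 (1.10, SE 0.26) and Rgs8 (1.21, SE 0.27) were likewise not called. Cerebellum array 1 was low across these lists, and without it 14 granule cell and 20 Purkinje cell markers were called rather than 11 and 15.

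**Figure D3:**
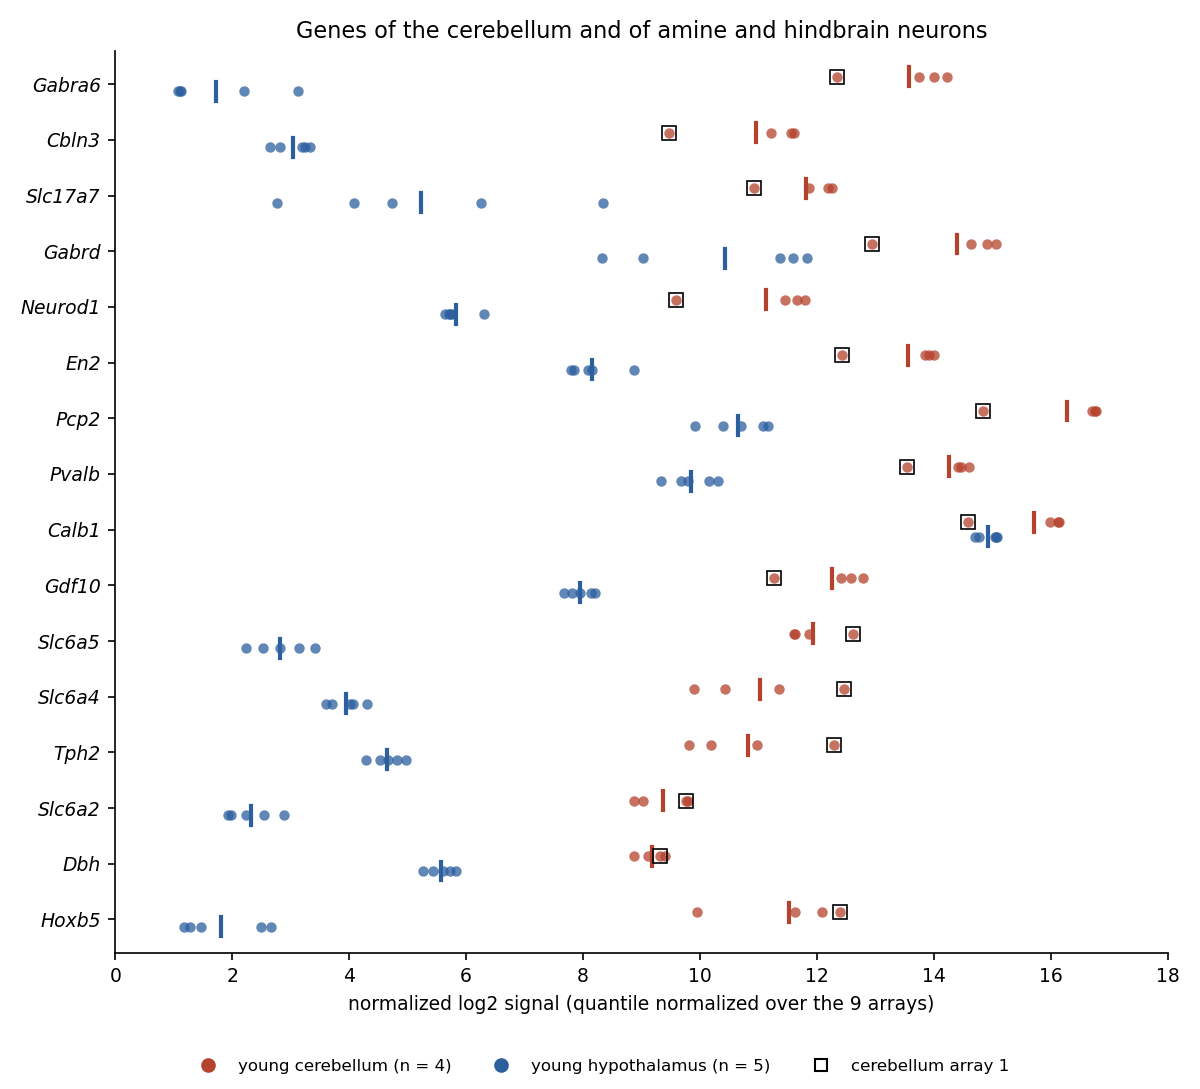
Cerebellar, monoamine and Hox genes on each array. Each row shows log2 normalized signal for 1 gene on the 4 cerebellum and 5 hypothalamus arrays, on a shared axis. There is a point for each array, a bar at the mean of each region and a square for cerebellum array 1. The square is the lowest cerebellum point for Gabra6, Cbln3, En2, Neurod1 and Pcp2 and the highest for Slc6a4 and Tph2.

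Bergmann glia and cerebellar interneurons were represented by 11 tested genes, 8 of them higher in the cerebellum and none in the hypothalamus (median 1.46). Gdf10, a growth factor of Bergmann glia, read 11.27, 12.59, 12.78 and 12.41 against 7.68, 7.94, 8.13, 8.2 and 7.81 (4.31, SE 0.28, 19.9-fold). Hopx (3.04), also of Bergmann glia, was called. Slc6a5, the neuronal glycine transporter of Golgi cells and of brainstem inhibitory neurons, read 12.62, 11.6, 11.86 and 11.63 against 3.41, 3.14, 2.81, 2.52 and 2.24 (9.10, SE 0.28), and here cerebellum array 1 was the highest. Its probe was well above background on 1 of 5 hypothalamus arrays, and the difference was 5.30 with normexp. Without cerebellum array 2, hypothalamus array 3 or hypothalamus array 5 the count was 5 rather than 8.

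Genes of serotonin and noradrenaline neurons, whose cell bodies lie in the brainstem and not in the cerebellum, were higher in the cerebellum samples. Slc6a4, the serotonin transporter, read 12.47, 10.43, 9.89 and 11.35 in the cerebellum and 4.31, 4.07, 4.01, 3.7 and 3.6 in the hypothalamus (7.10, SE 0.44). Tph2, the neuronal enzyme of serotonin synthesis, read 12.3, 10.18, 9.82 and 10.97 against 4.81, 4.28, 4.97, 4.52 and 4.67 (6.17, SE 0.43). With normexp they differed by 4.23 and 4.16. Both varied by over 2 log2 units among the cerebellum arrays, with array 1 the highest and array 3 the lowest.

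The noradrenergic genes varied less. Slc6a2, the noradrenaline transporter, read 9.76, 8.88, 9.8 and 9.03 against 2.23, 2.55, 1.92, 2.89 and 1.98 and was at least 79.6-fold higher in the cerebellum. Dbh, which makes noradrenaline from dopamine, read 9.32, 8.87, 9.4 and 9.11 against 5.26, 5.61, 5.44, 5.72 and 5.82 (3.61, SE 0.15, 12.2-fold). Markers of the brainstem leaned in the same direction: 5 of 10 were higher in the cerebellum and 1, Hoxc4 (-1.67), in the hypothalamus. Their mean level was 7.98 to 9.22 on cerebellum arrays and 4.65 to 4.91 on hypothalamus arrays. Hoxb5, Hoxa2 and Hoxb2 were not well above background on any hypothalamus array. The count of 5 was 1 among probes well above background on every array. The part of brainstem tissue in these results was not tested.

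Hoxb5, a positional gene of the hindbrain and spinal cord that is silent in the forebrain and in the embryonic territory of the cerebellum itself, read 12.4, 9.95, 12.08 and 11.63 in the cerebellum samples and 2.5, 2.66, 1.47, 1.17 and 1.28 in the hypothalamus, at least 377-fold higher. Its log2 difference was 4.99 with normexp and 6.55 with the series table, both smaller than that bound. After these values were seen, the whole Hox family was examined: 13 of 26 tested genes were higher in the cerebellum and 2 in the hypothalamus. The paralog groups 1 to 5, which pattern the hindbrain, held 10 of the 13 (10 of 14 tested), against 3 of 12 for groups 6 to 13. Bounds were at least 80.1-fold for Hoxb2, 67.3-fold for Hoxa5, 40.7-fold for Hoxd4 and 25.1-fold for Hoxa2. Hoxb4 gave 3.51, Hoxb3 3.41 and Hoxa4 4.07.

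The remaining transmitter genes showed few calls, 6 of 24 being higher in the cerebellum and 2 in the hypothalamus in all (1 without cerebellum array 4). Hdc, the histamine-synthesizing enzyme whose neurons lie in the tuberomammillary nucleus of the hypothalamus, read 9.25, 10.42, 10.12 and 10.46 against 12.88, 13.36, 13.52, 13.28 and 13.82 (-3.31, SE 0.27, 9.91-fold). Gad2, a GABA-synthesizing enzyme, was higher in the hypothalamus (-1.15), while its sister Gad1 gave 0.62 and the vesicular GABA transporter Slc32a1 -0.11, neither called. Slc6a13, a GABA transporter of meninges and vessels, was higher in the cerebellum (2.18), as was Slc6a11, a glial GABA transporter, on its brighter probe (1.27) but not on the other (-1.34).

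Dopamine genes were uneven. Slc6a3, the dopamine transporter, read 11.84, 8.86, 6.96 and 9.71 in the cerebellum and 14.36, 11.83, 10.43, 13.72 and 12.55 in the hypothalamus (-3.23, SE 1.01). The groups overlapped and the gene was not called. Th, the first enzyme of dopamine synthesis, gave -0.86 (SE 0.23), and Ddc, the next enzyme, -0.65 (SE 0.31).

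Receptor subunits for fast inhibition differed in composition. Of 15 GABA-A receptor subunit genes tested apart from Gabra6 and Gabrd, 8 were higher in the hypothalamus and none in the cerebellum (median -1.17). Gabrg1, a gamma subunit with limited distribution, read 11.19, 10.8, 10.65 and 10.91 against 13.71, 13.86, 13.65, 13.62 and 13.98 (-2.88, SE 0.13, 7.34-fold). Gabrq, the theta subunit of hypothalamic and monoamine neurons, gave -3.57 and Gabre, the epsilon subunit, -2.07. Gabra2 gave -3.0 on its brightest probe, although a dimmer probe of it gave 0.19, and Gabrb1 gave -1.33. The widespread subunit Gabrb2 (0.17, SE 0.10) was not called.

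For ionotropic glutamate receptors, 3 of 16 subunit genes were higher in the cerebellum and 4 in the hypothalamus, beside a background of 10.7% and 13.9%. The AMPA receptor subunit Gria4 (1.51), made in Bergmann glia and granule cells, and the NMDA receptor subunits Grin2a (1.54) and Grin3b (1.92) were higher in the cerebellum. The AMPA receptor subunit Gria1 (-1.30) and the kainate receptor subunits Grik1 (-1.98), Grik3 (-1.88) and Grik2 (-1.37) were higher in the hypothalamus, but Gria1, Grik1 and Grik2 each had a dimmer probe of the opposite sign. Without any single hypothalamus array another probe of Grik2 became the brightest and the gene gave 1.02 to 1.117, and with the mean of probes the count toward the hypothalamus was 1. Grin2d gave -2.81 (SE 0.54) and was not called, and Grin1, the obligatory NMDA receptor subunit, gave 0.11 (SE 0.21).

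Ion channels were balanced in number, with 7 of 42 higher in the cerebellum and 7 in the hypothalamus, near the background of 10.7% and 13.9%. The members differed by kind. Hcn2, a pacemaker channel, read 13.33, 12.87, 13.02 and 12.78 against 10.26, 10.2, 10.26, 10.34 and 10.22 (2.75, SE 0.12, 6.71-fold). The axonal potassium channels Kcna2 (3.07) and Kcna1 (1.70) were called as well.

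Toward the hypothalamus, Cacna1h, a low-threshold calcium channel that supports burst firing, read 8.66, 7.9, 8.1 and 7.8 against 11.04, 10.91, 11.05, 10.97 and 11 (-2.88, SE 0.16, 7.36-fold). The pacemaker channel Hcn3 (-2.48), the sodium channel Scn3a (-1.89) and the calcium channels Cacna1d (-1.79) and Cacna1e (-1.68) were higher there as well, of which Scn3a, Cacna1d and Cacna1e each had a dimmer probe of the opposite sign (0.95, 1.23 and 0.03). The Hcn family thus gave calls in both directions. Cacna1a, the main calcium channel of Purkinje cells, gave -0.14 (SE 0.11).

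Clock genes gave 5 of 20 calls, all toward the hypothalamus, beside 13.9% of all tested genes called in that direction. Per1, a repressor of the clock loop, read 10.52, 10.8, 11.11 and 10.48 against 12.34, 12.14, 12.15, 12 and 11.99 (-1.40, SE 0.15, 2.63-fold), without overlap. Per2 (-1.04), Npas2 (-1.05), Ciart (-1.44) and Rorb (-1.45, with another probe at 1.13) were the others, while Arntl (0.78), Cry1 (1.08) and Nr1d1 (0.46) were positive and not called. The time of day at which the mice of each region were killed is not given in the sources used here, so time of day and region cannot be told apart. The count fell to 2 without cerebellum array 1 or without hypothalamus array 1, 2 or 4, and to 3 without cerebellum array 4 or without hypothalamus array 3 or 5.

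Immediate early genes, transcripts that rise within minutes of neuronal activity or handling, gave 5 of 17 calls toward the hypothalamus and 1 toward the cerebellum. Over all tested genes the shares were 13.9% and 10.7%. Egr3 read 4.53, 5.33, 4.59 and 4.94 against 8.75, 7.16, 8.7, 7.65 and 7.48 (-3.10, SE 0.35, 8.57-fold), without overlap. Egr2 (-2.28), Fosb (-1.36), Npas4 (-1.26) and Fosl2 (-2.29, with another probe at 0.66) joined it. Ier2 was higher in the cerebellum (1.65, with another probe at -1.40), a call lost without cerebellum array 3 or 4 or hypothalamus array 1 or 4. Of the others, Fos (0.52, SE 0.26), Arc (0.79, SE 0.20) and Egr1 (-0.25, SE 0.17) were not called.

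The 15 oligodendrocyte genes all had a positive difference (median 0.65), and 2 of them, Opalin (1.06, with another probe at -0.06) and Ermn (1.03), were called, against 1 without cerebellum array 1 or hypothalamus array 3, 4 or 5 and none under normexp or with the replicate block. Their mean level was 13.2 to 13.54 on cerebellum arrays, highest on array 1, and 12.4 to 12.83 on hypothalamus arrays. Mbp, the myelin basic protein gene, gave 0.12 (95% interval -0.12 to 0.36). The 7 precursor markers leaned the other way (median -0.72), with Gpr17 (-1.96), a receptor of differentiating precursors, and Cspg5 (-1.29) higher in the hypothalamus.

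Astrocyte markers were split, with 3 of 14 higher in the cerebellum, 2 in the hypothalamus and a median of -0.02. The background was 10.7% and 13.9%. Aqp4, the astrocytic water channel, read 13.81, 13.65, 14.06 and 13.8 in the cerebellum and 10.71, 10.67, 10.37, 10.56 and 10.29 in the hypothalamus (3.31, SE 0.13, 9.92-fold). S100b (1.37), a calcium-binding protein also made in oligodendrocytes, went with it, while Agt (-1.21), the angiotensinogen gene, and Itih3 (-1.34) were higher in the hypothalamus. Gfap (0.46, SE 0.23), Gja1 (0.03, SE 0.15) and Slc1a3 (-0.32, SE 0.25) were not called.

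Cells that line the third ventricle were represented by 14 tanycyte and ependymal genes, of which 6 were higher in the hypothalamus and 1 in the cerebellum (median -1.39). Crym, a thyroid hormone-binding protein of tanycytes that is also made in forebrain neurons, read 7.35, 7.03, 7.31 and 6.91 against 13.5, 11.02, 12.88, 10.41 and 11.27 (-4.67, SE 0.57, 25.4-fold). The hypothalamus arrays spanned about 3 log2 units, with arrays 1 and 3 the highest. The ciliary genes Tmem212 (-2.26) and Ccdc153 (-2.01) and the tanycyte genes Col23a1 (-1.87), Gpr50 (-1.47) and Rarres2 (-1.32) were also called. Dio2, the enzyme that activates thyroid hormone in tanycytes and astrocytes, was higher in the cerebellum (1.86).

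Choroid plexus, the epithelium that secretes cerebrospinal fluid and lies against both regions in the ventricles, gave the highest median of any list. Of 10 genes tested, 8 were higher in the cerebellum (median 3.24). Ttr, the thyroid hormone carrier of that epithelium, read 11.35, 13.08, 12.57 and 13.25 in the cerebellum and 4.93, 3.8, 3.99, 2.16 and 2.21 in the hypothalamus (9.15, SE 0.61), where it was well above background on 2 of 5 arrays, and 5.68 with normexp. Kcne2 (5.84), the water channel Aqp1 (5.21), Slc4a5 (4.48), the folate receptor Folr1 (3.49), Otx2 (2.99), Kl (2.95) and Enpp2 (1.99) were called too. Mean levels were 10.55 to 11.85 on cerebellum arrays, lowest on array 1, and 7.52 to 8.06 on hypothalamus arrays.

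Endothelial and pericyte genes gave 5 of 14 calls, all toward the cerebellum, led by the tight junction gene Cldn5 (1.91), with Ly6c1 (1.15), Tek (1.13), Rgs5 (1.04) and Kdr (1.02). That count was 3 without cerebellum array 1 or hypothalamus array 2. Meningeal genes gave 3 of 8 calls toward the cerebellum, Col1a2 (1.32), Aldh1a2 (1.31) and Dcn (1.08). Each of the 4 tested genes of red blood cells was higher in the cerebellum, namely Alas2 (2.31), Hba-a1 (2.19), Slc4a1 (1.38) and Hbb-bt (1.28), with mean levels of 12.92 to 13.5 against 11.29 to 11.55. The part of retained blood in the other differences was not tested.

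Markers of tissue next to the hypothalamus varied among the hypothalamus arrays. Cga, the shared subunit of pituitary glycoprotein hormones, read 5.36, 4.53, 6.74 and 4.57 in the cerebellum and 11.15, 13.11, 11.99, 11.72 and 11.56 in the hypothalamus (-6.61, SE 0.50, 97.4-fold). Prl, the prolactin gene of the anterior pituitary, read 1.43, 2.16, 3.04 and 1.11 against 9.72, 10.33, 3.02, 10.13 and 5.03. It was high on hypothalamus arrays 1, 2 and 4 and at the level of the cerebellum on array 3, and was not called. In all 2 of 9 pituitary genes, Cga and Pitx1 (-2.45), were called, both toward the hypothalamus, beside a background of 13.9%. The list averaged 6.77 to 8.32 on hypothalamus arrays against 4.84 to 5.36 on cerebellum arrays. The part of pituitary tissue in the hypothalamic results was not tested.

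Striatal genes included 3 of 9 higher in the hypothalamus, the orphan receptor Gpr6 (-5.04), the dopamine receptor Drd1 (-3.45) and the signalling regulator Rgs9 (-2.58). Drd1 read 5.62, 5.1, 5.41 and 5.14 against 9.65, 7.9, 10.03, 8.1 and 8.16, and the mean of the striatal list was likewise 10.38 on array 1 and 10.75 on array 3 against 9.44 to 9.71 on the others. Without hypothalamus array 2 the count was 5, and without array 3 the count toward the cerebellum was 2 rather than 1. Pde10a was called toward the cerebellum on its brighter probe (2.05), against -4.44 on the other. Of 10 thalamic genes, Slitrk6 (-3.93) and Lef1 (-1.39, with another probe at 0.42) were called, beside a background of 13.9%. The thalamic list averaged 11.15 on hypothalamus array 2 against 10.22 to 10.49 on the others. Of 10 genes of cortex and hippocampus, Tbr1 (at least 11.3-fold) and Egr3 were higher in the hypothalamus, and Lamp5 (2.70) and Neurod6 (2.05) in the cerebellum.

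**Figure D4:**
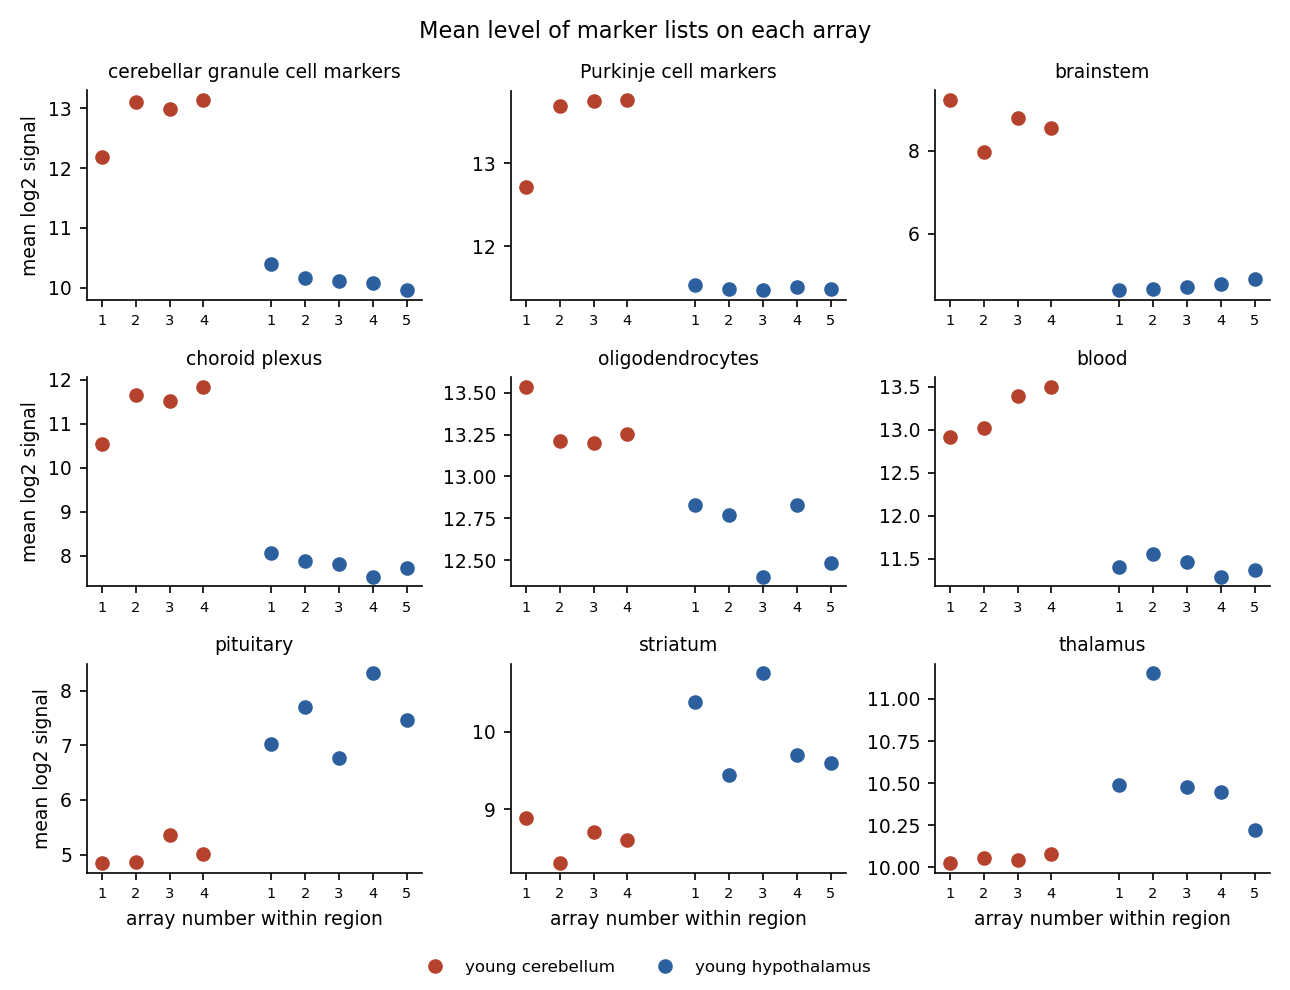
Marker lists on each array. Each panel shows the mean log2 normalized signal over the tested genes of 1 list on each of the 4 cerebellum and 5 hypothalamus arrays. The vertical axes differ between panels and do not start at 0. Cerebellum array 1 is the lowest of its region for granule cell, Purkinje cell and choroid plexus markers and the highest for brainstem and oligodendrocyte markers, and hypothalamus array 2 is the highest for thalamic markers.

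Microglial and immune genes hardly separated the regions in young mice. Of 13 microglial markers 1 was called, the receptor Gpr34 (-1.27), and the median was -0.28. That count was 0 without cerebellum array 1, under normexp and with the replicate block. Of 36 immune genes that the study names for their change with age, 2 were higher in the cerebellum, Spp1 (2.65), the osteopontin gene, and Anxa4 (1.61, with another probe at -0.08), and none in the hypothalamus (1 without hypothalamus array 4), with a median of -0.21, below the background of 10.7% and 13.9%. That list was chosen on the samples of this series and is not independent evidence of its direction. Itgax, an integrin of activated microglia, read 6.85, 4.78, 6.84 and 5.01 in the cerebellum and 8.68, 8.83, 6.05, 5.21 and 5.8 in the hypothalamus, with overlap, and the whole immune list averaged 11.32 and 11.33 on hypothalamus arrays 1 and 2 against 10.1 to 10.33 on the others. Microglial sensing genes were mixed within the list, with Tyrobp at 1.12 (SE 0.31) and Adgre1 at -1.49 (SE 0.27), neither called.

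Of 13 genes often used to normalize between samples, 11 were not called and the median was 0.06. The arrays of the regions did not overlap for 6 of the 13, beside 57.4% of all tested genes. Gapdh (0.78, SE 0.12) and Actb (-0.75, SE 0.13) were among these 6, at under 2-fold. Hprt was higher in the hypothalamus at 14.44, 14.21, 14.11 and 14.2 against 15.99, 16.07, 16.08, 15.86 and 16.24 (-1.81, SE 0.11), and Ppia was higher in the cerebellum at 15.67, 15.72, 15.55 and 15.56 against 13.77, 13.92, 13.81, 14.15 and 13.52 (1.79, SE 0.13). Rpl13a (-0.01, SE 0.11) and Tbp (0.02, SE 0.19) differed least.

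Of the 15 genes with the widest fitted difference toward the hypothalamus, 13 belonged to the lists above, and the others were Bpifa1 (at least 83.8-fold) and 3110039M20Rik (at least 49.8-fold). Of the 15 toward the cerebellum, 10 belonged to them, and the others were Hoxa5, Hoxd4, Mybpc1, a myosin-binding protein gene (at least 101-fold), Il22, a cytokine gene (6.81), and Sycp1, a gene of meiotic chromosome pairing (at least 35.0-fold). These sets rest on fitted values, and genes not well above background on any array of a region have no order among them.

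The same contrast was then drawn in aged mice, from arrays that played no part in the young calls. In aged C57BL/6 mice 24.3% of 23316 genes were called (10.9% higher in the cerebellum and 13.4% in the hypothalamus). Of the genes called toward the cerebellum in young mice, 2457 were tested on the same probe in aged mice, where 2457 had the same direction and 1894 (77.1%) were called. Toward the hypothalamus, 3148 of 3148 had the same direction and 2425 (77%) were called, and no gene was called in the opposite direction. The aged arrays shared slides with the young arrays. Slides and software versions separated the regions in the aged mice in the same manner, so these shares do not bear on those technical differences.

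In aged C57BL/6 mice the list medians were -2.61 for neuropeptides, -2.95 for hypothalamic transcription factors and -1.28 for receptors, with 22, 26 and 21 genes called toward the hypothalamus. They were 1.22 for cerebellar transcription factors, 1.68 for granule cell markers and 1.48 for Purkinje cell markers, with 22, 13 and 17 called toward the cerebellum. Pmch gave -9.70, Hcrt -8.40, Avp -7.61 and Oxt -6.65. Gabra6 gave 10.22 and Pcp2 5.49. The choroid plexus list gave 4 calls rather than 8, with a median of 2.36, and the thalamic list 5 calls toward the hypothalamus rather than 2. Whether these lists differed between ages was not tested as such.

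In aged BALB mice 17.5% of 19890 genes were called (8.83% and 8.66%), or 30.4% with an adjusted p under 0.05 in place of B. Of young C57BL/6 calls toward the cerebellum, 2068 were tested on the same probe, 1807 (87.4%) had the same direction and 778 (37.6%) were called, with 5 called in the opposite direction. Toward the hypothalamus 2224 of 2650 (83.9%) had the same direction, 1025 (38.7%) were called and 72 were called in the opposite direction. BALB and C57BL/6 mice differ here in strain and age, and their hypothalamus arrays also in image software, so the difference between them was not tested. Young BALB mice were not compared, because genes of region went against the labels of the young BALB cerebellum arrays. The BALB arrays were thus chosen with knowledge of such genes, and the shares above are not independent of that choice.

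In the BALB mice Pmch gave -10.40, Hcrt -9.77 and Pcp2 7.54. Nkx2-1 and Gabra6 were called in the same direction as in C57BL/6 mice, and neither probe was well above background on any BALB array of the other region. Other differences were much smaller or of the other sign. Aqp4 gave 0.40 (3.31 in young C57BL/6), Crym 0.61 (-4.67), Spp1 -0.10 (2.65), Lamp5 -0.06 (2.70), Hba-a1 -0.45 (2.19) and Hcn2 0.89 (2.75), none of them called in the BALB mice. The monoamine genes were positive but smaller, at 3.13 for Slc6a4, 2.71 for Tph2, 4.35 for Slc6a2 and 0.66 for Dbh, of which Slc6a2 was called, and the probes of Slc6a4 and Slc6a2 were not well above background on any BALB hypothalamus array. The brainstem list was also lower there, with 1 of 8 genes called toward the cerebellum and a median of 0.98.

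**Figure D5:**
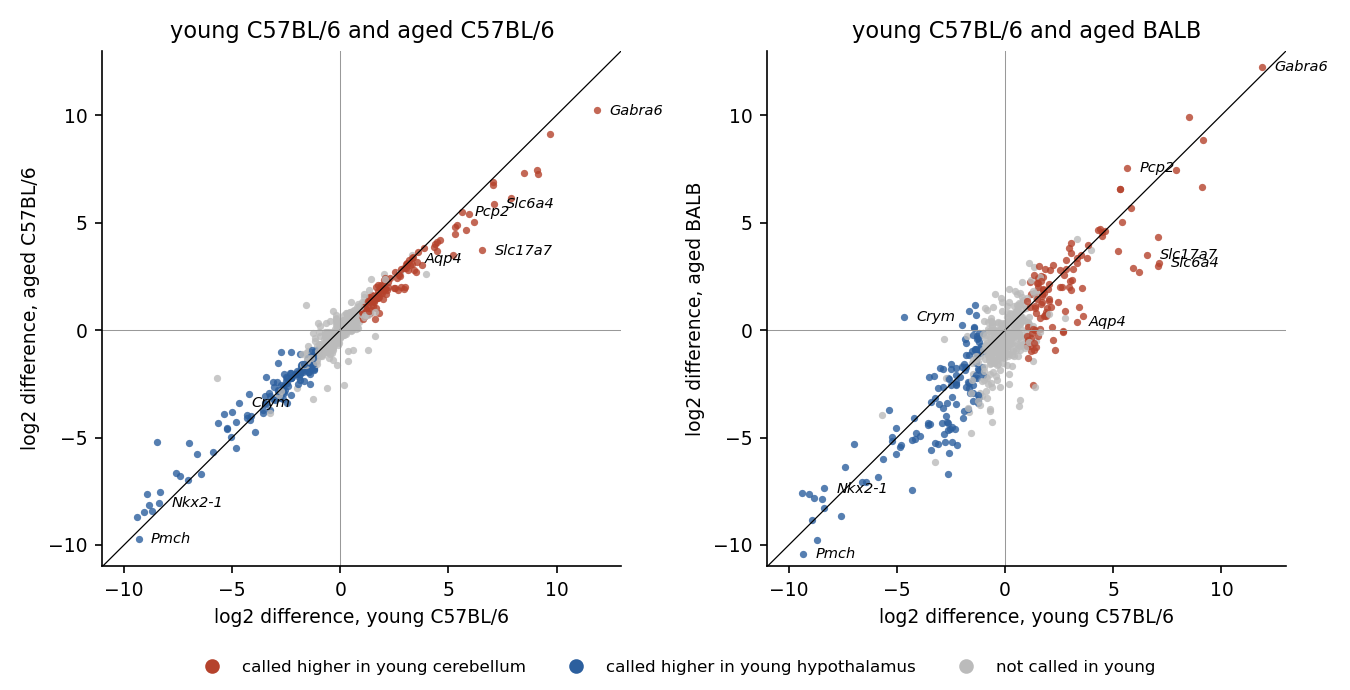
The regional difference in young C57BL/6 mice against that in aged C57BL/6 mice (left) and aged BALB mice (right), for the tested members of the lists, on the same probe. Both axes are log2 differences (cerebellum minus hypothalamus) and the line marks equal values. In the left panel the points lie along the line, and in the right panel Aqp4 and Crym lie near 0 on the vertical axis while Pmch and Pcp2 lie far from 0 on both axes.

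Whether the regional difference itself changed with age in C57BL/6 mice was tested as an interaction over 24426 genes. B was above 0 for 4 genes (0.0164%), each with a difference that moved toward the hypothalamus in aged mice. Tnnt1, a troponin gene expressed in thalamus, went from 0.19 to -2.59 (change -2.78, SE 0.47), Wnt9a from -0.64 to -2.20 (-1.56, SE 0.27), Gpr4 from 0.86 to -0.64 (-1.50, SE 0.27) and Vav3, also expressed in thalamus, from 0.37 to -0.98 (-1.35, SE 0.25). Their limma adjusted p-values were 0.174 for Tnnt1 and Wnt9a and 0.178 for Gpr4 and Vav3. At an adjusted p under 0.05 no gene passed, while 1103 (4.52%) had an unadjusted p under 0.05. The count of 4 moved with single arrays, being 22 without young hypothalamus array 2 and 21 without aged hypothalamus array 3. It was 0 without any single one of young cerebellum arrays 1, 2 and 4, young hypothalamus arrays 1, 3 and 5, aged cerebellum arrays 1 and 4 and aged hypothalamus arrays 1, 2 and 5, and also at the 75th percentile and with the replicate block. In young mice the Tnnt1 signal was 10.31, 9.77 and 10.15 on cerebellum arrays 2 to 4, array 1 having no usable spot and being left out of that fit, and 9.88, 11.09, 10.22, 9.47 and 8.78 on the hypothalamus arrays, where array 2 was the highest as it was for the thalamic list.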

How the data were processed

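RNA was amplified once, labeled with Cy3 and hybridized to 1-colour Agilent whole mouse genome arrays. The authors deposited scanner files with background-subtracted processed intensity for each spot and a series table of log2 values. The submitters' processing notes name Agilent Feature Extraction 9.1 and limma, whereas file headers name version 10.1 for C57BL/6 hypothalamus, 10.5 for cerebellum and 9.1 for BALB hypothalamus.

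Processed intensities were log2 transformed, averaged over the spots of a probe and quantile normalized over the arrays compared, in R 4.3.3 with limma 3.58.1. Control spots and outlier flags were left out. Of 41174 probes, 25345 were named through a RefSeq accession and the rest kept the name of the file, giving 27537 names. Probes well above background on at least 4 arrays (5 in aged C57BL/6 mice) were tested with lmFit and eBayes (prior proportion 0.01). A gene was its brightest probe over the arrays compared, and aged values beside young values use the same probe. Calls needed B above 0 and a 2-fold difference, and adjusted p-values are Benjamini-Hochberg values over all tested probes, taken before a gene's probe was chosen. For a probe not well above background on any array of a region, the fold is a bound against, for each array, the higher of its own signal and the dimmest probe well above background. Such bounds hold for this processing only. Normexp and the series table gave smaller differences than the bound for Nkx2-1, Dlx2, Sim1, Hoxb5 and Slc6a2. The limited number of arrays sets the precision of every value. P-values measure the spread between these samples.

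The members and gene lists were chosen with earlier results of these data known. The text names members of 31 lists and the 15 called, non-overlapping genes of widest difference in each direction, with the exceptions named as such. Some members of the lists are counted but not reported here by name. Alternatives were 75th percentile scaling, normexp with an offset of 50, no filter or a stricter filter on dim probes, adjusted p-values in place of B, no fold minimum, the series table, the slide and the replicate number as blocks, the mean of a gene's probes, and leaving out each array. Normexp used the median signal, chosen after seeing the data, because the C57BL/6 files hold no mean signal. The code was tested on simulated data. Samples were treated as unpaired, since the sources used here do not say whether both regions came from the same mice. Deviations of same-numbered arrays correlated at 0.0818, -0.0612, -0.21 and 0.0605. With so few arrays these values cannot exclude a pairing, under the same or under other numbers. Young and middle-aged BALB arrays, middle-aged C57BL/6 arrays and other regions and strains were not used here. The young and middle-aged BALB cerebellum arrays were left out because genes of region went against their labels.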

Additional observations from a re-analysis of the deposited data

Results flagged for a closer look

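Values of single genes and of list means were screened within each region of the young mice for an array far from the others. Of 163 groups of values examined, 16 held such an array. The rule flags about 1 in 20 groups of independent, normally distributed values. The groups here share arrays, and genes also enter the list means, so the 16 cannot be set against that rate. Of the 16, 11 were cerebellum array 1. It was the lowest of the 4 cerebellum arrays for Npy (11.0842, others 11.82 to 11.91), Cck (13.9171), En2 (12.4294), Neurod1 (9.5885), Pcp2 (14.8385), Pvalb (13.5377) and Calb1 (14.5923), and for the means of the granule cell markers (12.1806) and the Purkinje cell markers (12.7122). It was the highest for the means of the peptide and hormone receptors (7.7597) and of the GABA-A receptor subunits (9.7308).

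Among the hypothalamus arrays, array 1 was the lowest for Calcr (11.7459) and for the neuropeptide mean (11.4153). Array 4 was the highest for Neurod1 (6.3039) and for the mean of the oligodendrocyte precursor markers (12.4066), and array 2 for the mean of the thalamic markers (11.1538).

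In C57BL/6 mice the regional difference changed with age by the interaction test, with B above 0, for Wnt9a (-1.5587), Gpr4 (-1.5044), Tnnt1 (-2.78) and Vav3 (-1.35357), each toward the hypothalamus in aged mice, and none of them at an adjusted p under 0.05.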

How the results depend on the processing

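Of 556 named genes, none that was called in the young contrast or under the alternative changed sign under 75th percentile scaling, normexp, no filter, the series table or the replicate block, with 18, 39, 3, 20 and 44 calls lost and 4, 10, 0, 18 and 3 gained. The number of genes called was 5687, and it was 5228 under 75th percentile scaling, 5924 without a filter, 4565 with the stricter filter, 4475 from the series table and 5214 with the mean of a gene's probes. Under normexp it was 3212 (1418 higher in the cerebellum and 1794 in the hypothalamus) in young and 3632 (1645 and 1987) in aged C57BL/6 mice. Adjusted p-values in place of B gave 7359 in young C57BL/6 mice and 6048 (2939 and 3109) in aged BALB mice. The stricter filter gave 1026 higher in the cerebellum in BALB mice. At the 75th percentile the share of calls higher in the cerebellum went from 43.4% to 52.8% in young and from 44.7% to 57.4% in aged C57BL/6 mice, and from 50.5% to 63.3% in BALB mice, and the median of all genes from -0.09 to 0.04 in aged C57BL/6 mice and from -0.10 to 0.02 in BALB mice. The cause was not tested.

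Genes near background in either region shrank under normexp, to 7.14 for Gabra6, -3.39 for Nkx2-1, -4.54 for Dlx2, -2.53 for Sim1, 4.99 for Hoxb5, 5.68 for Ttr, 5.30 for Slc6a5 and 2.96 for Slc6a2. The medians became -2.12 for neuropeptides, -0.61 for receptors, -1.63 for hypothalamic and 0.52 for cerebellar transcription factors, 2.60 for choroid plexus and 1.48 for brainstem. The median of ion channels turned to 0.21 and that of clock genes to 0.02 with the mean of probes, and that of ion channels to 0.01 without cerebellum array 1. With the mean of probes 8 genes changed sign: Tac1 (0.15), Chgb (1.44), Tfap2b (2.48), Slc6a11 (-0.031), Kcnd2 (1.22), Cacnb4 (1.72), Slc4a4 (-0.58) and Pde10a (-1.19). Without single arrays Grik2 ranged from -1.39 to 1.117, and it was positive, at 1.02 or more, without any hypothalamus array, when another of its probes became the brightest. Of 1603 called genes with several probes, 574 had probes of both signs.

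Leaving out each array in turn gave 5085 to 5710 calls in young C57BL/6 mice (2203 to 2504 and 2770 to 3206), 5200 to 5767 in aged C57BL/6 mice (2332 to 2565 and 2826 to 3202) and 2790 to 4305 in BALB mice (1367 to 2181 and 1385 to 2124). Of the lists, Purkinje cell calls ranged from 10 to 20. Clock gene calls toward the hypothalamus, 5, were 2 at the 75th percentile and with the replicate block, immediate early gene calls 3 under normexp, and endothelial calls 3 under normexp, the series table, the replicate block and the mean of probes.

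The interaction gave 4 genes, and 0 at the 75th percentile, with the replicate block and by adjusted p, 1 with the mean of probes, 2 without a filter, 11 with the stricter filter, 15 from the series table and 19 under normexp, in each case all toward the hypothalamus, and 38 with slide as a random block (3 toward the cerebellum and 35 toward the hypothalamus). Without single arrays it gave 0 to 22 (0 to 2 and 0 to 21): 22 without young hypothalamus array 2, 21 without aged hypothalamus array 3, 14 without young hypothalamus array 4, 8 without young cerebellum array 3, aged cerebellum array 2 or aged cerebellum array 6, 5 without aged hypothalamus array 4, 2 without aged cerebellum array 3 or 5, and 0 without each of the others.

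The sources used here do not say whether samples that share a replicate number come from the same mouse. With the replicate block the young contrast gave 4548 calls (2002 and 2546), of which 4405 were among the 5687 and had the same direction, and the BALB contrast gave 1308 (726 and 582). Slide as a random block could not be fitted for the young contrast, in which a single slide held 2 of its arrays. Normexp on the mean signal was not run.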
